A study of Caenorhabditis elegans with 8 samples.

Results

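The hedgehog-related and patched-related genes of the nematode *Caenorhabditis elegans* were followed in starved first-stage (L1) larvae of 3 mutants, each set against the wild-type strain N2. The genes were chosen by name, as those whose symbol begins with wrt-, grd-, grl-, hog-, ptc- or ptr- and a number. Of 81 such symbols matched to a transcript in the tables, 75 had reads and are the members, out of 27913 named genes with reads. They comprise 51 hedgehog-related genes (9 wrt, 14 grd, 27 grl and hog-1) and 24 patched-related genes (ptc-1, ptc-3 and 22 ptr). The other 6 symbols, wrt-3, grd-1, grd-6, grl-13, grl-14 and grl-16, were listed at 0 in all 3 tables.

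The mutants were spr-5 (allele by101) and met-2 (allele n4256), with a strain here called the double mutant (spr-5; met-2), which carries both alleles. N2 carries neither. SPR-5 is a histone H3 demethylase and MET-2 a histone H3 methyltransferase, and the study asked which genes change in each mutant. Each of the 4 groups had 2 libraries of total RNA from whole animals, with 200 to 250 starved larvae per extraction. The animals were cultured at 20 °C and the larvae hatched at 21 to 22 °C. The labels do not say whether the 2 libraries of a group came from separate cultures, so the p-values measure the spread between these libraries, which may be technical. In whole animals, fewer cells of a type and less RNA per cell cannot be told apart.

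Hedgehog is a secreted signal that is received in flies and vertebrates by the membrane protein Patched. Nematodes have no clear Hedgehog itself. They have instead large families of secreted proteins that share parts of it, the warthog (wrt), groundhog (grd), ground-like (grl) and hog genes, and many Patched-like membrane proteins with a sterol-sensing domain, the ptc and ptr genes. Many members of both kinds are made by the epidermis or by glia, and several are needed for moulting and for the apical matrix.

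The authors deposited 1 table per mutant. For each transcript it holds a base mean, the scaled counts averaged over the 4 libraries compared, and a log2 fold change of the mutant over N2 (called log2 change below) with its standard error (SE). Unadjusted and adjusted p-values are given too. Fold changes of transcripts with few reads are shrunken towards 0. No column holds a single library. Each base mean adds up the whole reads of its libraries, weighted by 1 constant per library, so the reads of the 8 libraries could be worked back from it. The labels do not say which sample a recovered library is. The libraries therefore have no group here, are numbered 1 to 8 by their total reads, and enter no comparison. Their totals ranged from 2600891 to 4606327 reads over transcripts whose base mean was 10000 or less. As read from the base means, libraries 1 and 6 enter all 3 comparisons. Libraries 4 and 8 enter that of spr-5 alone, libraries 3 and 5 that of met-2 alone, and libraries 2 and 7 that of the double mutant alone. This is a property of the values and not of a label, so no fold was computed from it. All reads below are recovered reads, and all folds, SEs and p-values are those of the authors' deposited tables.

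The genes differed widely in level. Per kilobase of exon, on the scale of the mean base mean over the 3 tables, grd-10 was the highest at 980 and grd-5 the second at 438. The next were ptr-5 at 323, ptr-23 at 265, ptr-21 at 258, grd-13 at 252, ptr-8 at 197 and grd-3 at 167. These levels pool mutant and N2 libraries. The median base mean of the hedgehog-related genes was 9.32 in the spr-5 table, 10.1 in the met-2 table and 5.77 in the double-mutant table. For the patched-related genes it was 107, 114 and 119.4. A minimum base mean of 10, used below, was reached by 23 of 51 hedgehog-related genes in the spr-5 table, 26 in the met-2 table and 18 in the double-mutant table, and by 19 of 24 patched-related genes in each.

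Across all 75 genes, 1 change passed the authors' adjusted p of 0.05. It was the fall of grl-6 in double mutants. No member passed in spr-5, where the authors' deposited table called 0.0101% of the transcripts with an adjusted p. None passed in met-2, where it called 0.0647%. In double mutants it called 0.709%. Not every member could be called, since 74 members had an adjusted p in spr-5 mutants, 49 in met-2 mutants and 37 in double mutants.

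**Figure D1:**
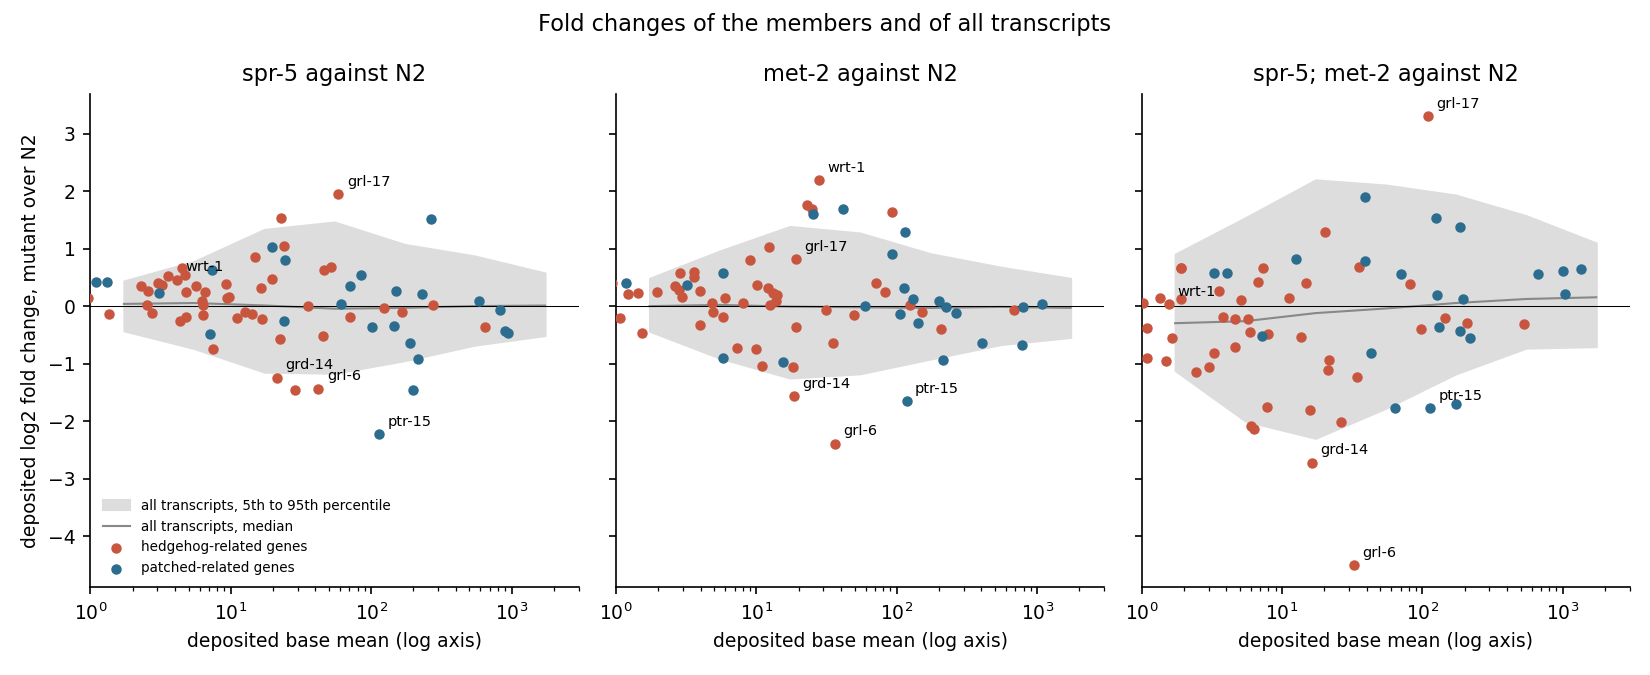
Deposited log2 change of each mutant over N2 against the deposited base mean (log axis), 1 panel per mutant. Points are members with a base mean of at least 1, red for hedgehog-related and blue for patched-related genes. The grey band spans the 5th to the 95th percentile of all transcripts in the same range of base mean and the grey line their median. Members outside the band in the panel of double mutants include grl-6 at -4.50, grd-14 at -2.72, ptr-15 at -1.77, ptr-6 at -1.69 and grl-17 at 3.31.

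grl-6 (NM_076683), a ground-like gene that belongs to the secreted families, was the member with the lowest fold in both met-2 and the double mutant. Its reads in the 4 libraries of the double-mutant comparison were 0, 1, 18 and 139, from low to high. The authors' deposited table gave a log2 change of -4.50 in double mutants (SE 1.23, adjusted p 0.0387). Its reads in the 4 libraries of the met-2 comparison were 0, 8, 18 and 139, and those of the spr-5 comparison were 0, 18, 26 and 139. The authors' deposited tables gave -2.39 in met-2 (SE 0.89, adjusted p 1.00) and -1.44 in spr-5 (SE 0.92, adjusted p 1.00). The 139 reads are those of library 6, which enters all 3 comparisons, and they made up 80.9% of the scaled reads in the double-mutant comparison. Adjusting over every p-value of the authors' deposited table gave an adjusted p of 0.0870 and ended the call. The fold without that library was not computed, since no label gives the libraries a group. Neither neighbour of grl-6, fah-1 or K10C2.6, passed the test in any of the authors' deposited tables.

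Other genes also had their highest count in library 6. grd-14, a groundhog gene, had 8, 3, 8, 7, 0, 68, 0 and 10 reads in libraries 1 to 8. In double mutants the authors' deposited table gave it a log2 change of -2.72 (SE 1.29, unadjusted p 0.0352, adjusted p 0.714). ptr-15 (NM_072359), a patched-related gene, had 30, 48, 70, 39, 7, 430, 31 and 4 reads in libraries 1 to 8. Its log2 change in the authors' deposited tables was -2.22 in spr-5 (SE 0.88, unadjusted p 0.0119, adjusted p 1.00), -1.65 in met-2 and -1.77 in double mutants. grl-5 had 8, 6, 46, 15, 0, 104, 8 and 0 reads. The authors' deposited tables gave it -1.46 in spr-5 (SE 0.93), -0.63 in met-2 (SE 0.90) and -2.01 in double mutants (SE 1.19). ptr-6 had 576 reads in library 6 and between 62 and 138 in each of the others. It was named after its values were seen. In each of these 4 genes library 6 stood above all others, and none of their folds passed the adjusted p in any of the 3 tables. Scaled for depth, 7 of the 75 members were highest in library 6. They include grd-12 and ptr-4, with log2 changes in double mutants of -1.81 (SE 1.31) and -0.35 (SE 1.06) in the authors' deposited table. The genes above were named by their folds or values, so their shared high library is not a separate result.

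grl-17 (NM_073958) had the highest fold of the members in spr-5 and double mutants. It had 17, 62, 19, 157, 39, 0, 387 and 82 reads in libraries 1 to 8. In the double-mutant comparison its 4 libraries held 0, 17, 62 and 387 reads, and in the spr-5 comparison 0, 17, 82 and 157. The authors' deposited tables gave a log2 change of 3.31 in double mutants (SE 1.19, unadjusted p 0.00548, adjusted p 0.277) and 1.96 in spr-5 (SE 0.91, unadjusted p 0.0313, adjusted p 1.00). In met-2 the authors' deposited table gave 0.82 (SE 0.91), with 0, 17, 19 and 39 reads. None of these folds passed the adjusted p.

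**Figure D2:**
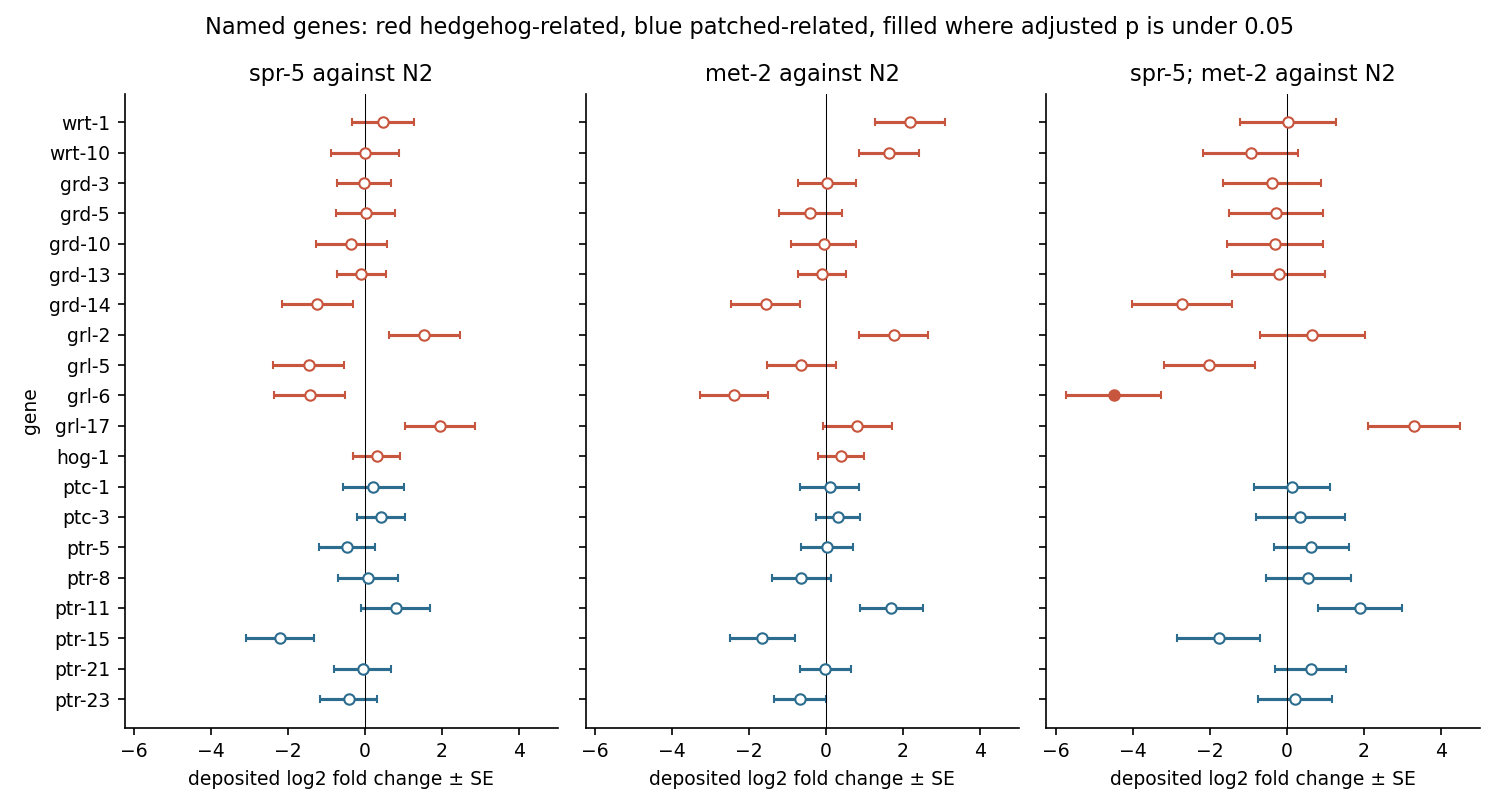
Deposited log2 change with its SE (bars) of the 20 genes chosen by rule, 1 panel per mutant over N2. A filled point marks an adjusted p under 0.05 and is seen for grl-6 in double mutants and for no other gene; hog-1 has no fold there because it had no reads.

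At an unadjusted p under 0.05 and base means of 10 or more, members could be counted against all transcripts. In spr-5, 1 of 42 members was higher (grl-17) and 1 was lower (ptr-15), where the authors' deposited table had 2.04% of transcripts higher and 0.663% lower. In met-2, 4 of 45 were higher (wrt-1, wrt-10, grl-2 and ptr-11) and 1 was lower (grl-6), against 2.07% and 1.21% of transcripts in the authors' deposited table. In double mutants, 1 of 37 was higher (grl-17) and 2 were lower (grl-6 and grd-14), against 3.88% and 2.04% in the authors' deposited table. The members' counts are of 1 to 4 genes, and no test set them against the shares of all transcripts.

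Of the 4 genes higher in met-2 at an unadjusted p, wrt-1 and wrt-10 are neighbours in the assembly WBcel235 and both are warthog genes. wrt-1 had 2, 3, 116, 15, 0, 1, 0 and 0 reads in libraries 1 to 8. Library 3 alone held 97.3% of its scaled reads in the met-2 comparison. wrt-10 had 13, 22, 104, 28, 206, 61, 1 and 50 reads, so more than 1 library was high. The authors' deposited table gave log2 changes in met-2 of 2.19 for wrt-1 (SE 0.91, unadjusted p 0.0155) and 1.65 for wrt-10 (SE 0.78, unadjusted p 0.0353). In the authors' deposited table the adjusted p of both was 1.00. For the other mutants, the authors' deposited tables placed wrt-10 at 0.00 in spr-5 and at -0.94 in double mutants, and wrt-1 at 0.47 and 0.04.

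wrt-2, a warthog gene made in the epidermis and named here after its values were seen, had 10, 7, 296, 15, 0, 0, 0 and 0 reads. As with wrt-1, library 3 stood alone. Its base mean was 71.6 in the met-2 table, against 6.34 in the spr-5 table and 4.63 in the double-mutant table. Its log2 change in met-2 was 0.41 (SE 0.62, adjusted p 1.00), per the authors' deposited table. The 4 libraries of that comparison held 0, 0, 10 and 296 reads, and library 3 held 96.0% of the scaled reads. With reads so uneven, the fold of wrt-2 cannot be read as a measured small change. How far it was shrunken was not tested.

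grl-2 is known from the excretory duct and pore cells. It had 8, 17, 43, 43, 42, 0, 2 and 47 reads in libraries 1 to 8. The authors' deposited tables gave a log2 change of 1.76 in met-2 (SE 0.90, unadjusted p 0.0492, adjusted p 1.00) and 1.54 in spr-5 (SE 0.93). ptr-11, a patched-related gene, had 16, 77, 46, 33, 96, 10, 51 and 44 reads. The authors' deposited tables gave it 1.70 in met-2 (SE 0.82, unadjusted p 0.0385, adjusted p 1.00), 0.80 in spr-5 (SE 0.90) and 1.90 in double mutants (SE 1.09). In the met-2 comparison the highest library held 47.9% of the scaled reads of grl-2 and 53.5% of those of ptr-11.

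**Figure D3:**
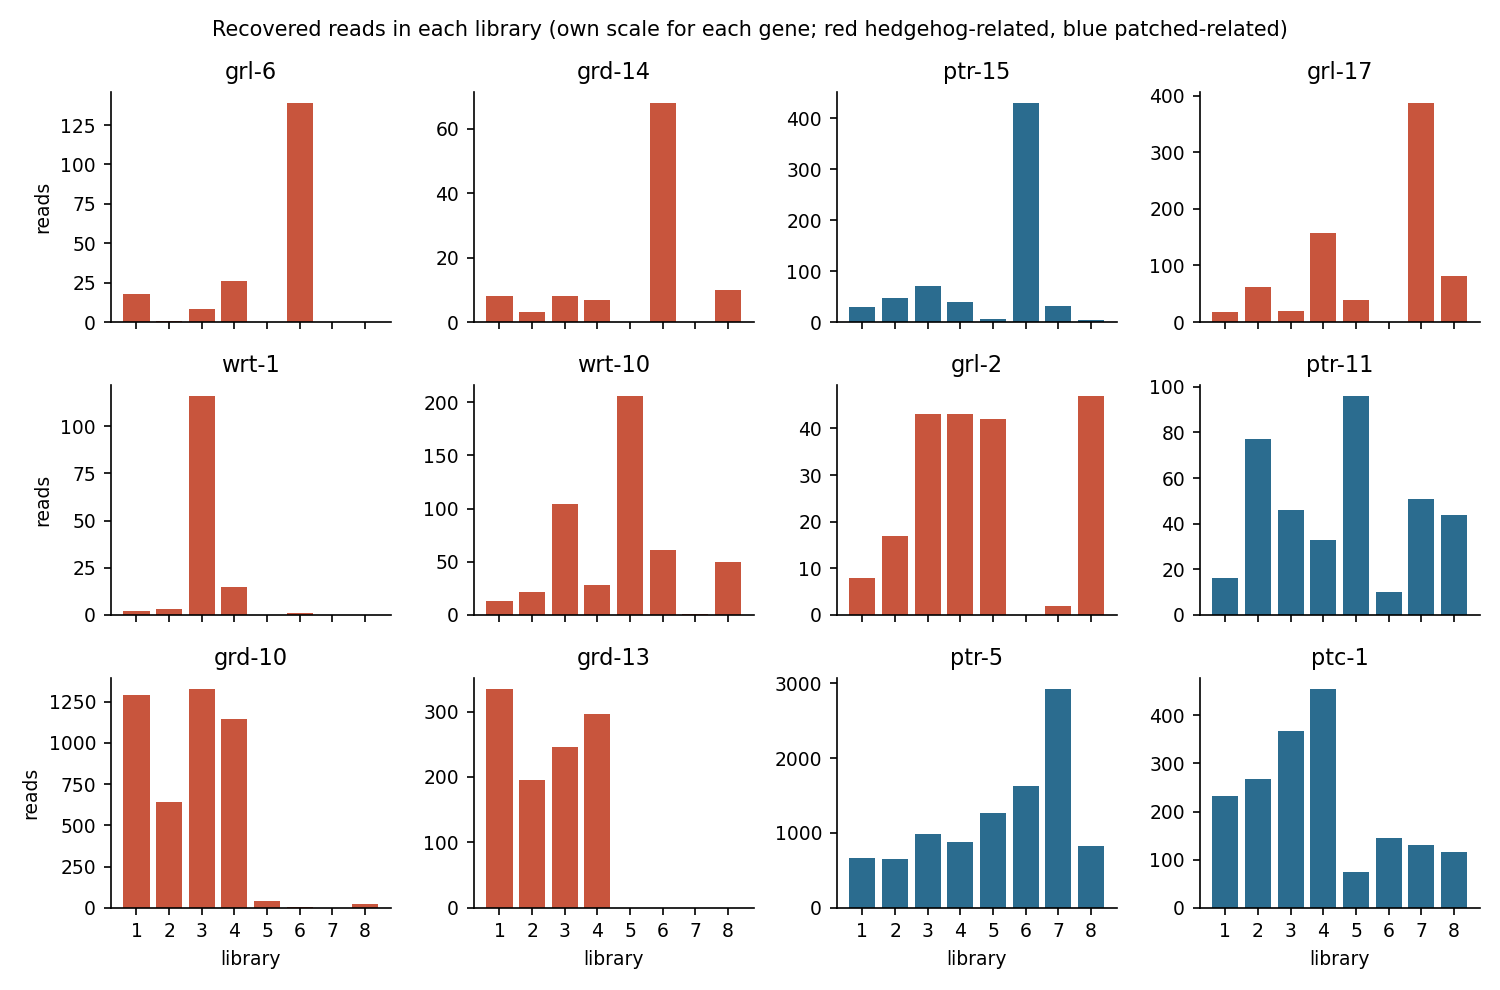
Recovered reads, not scaled for depth, of 12 genes in libraries 1 to 8, 1 panel per gene with its own axis from 0. grl-6, grd-14 and ptr-15 are highest in library 6 and wrt-1 in library 3; grd-13 has reads in libraries 1 to 4 alone.

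Among the secreted proteins, the wrt genes had positive folds in met-2 in 9 of 9 cases, with a median log2 change of 0.26 computed from the authors' deposited table. Their median SE was 0.88, and none passed the adjusted p. Over all transcripts of the authors' deposited table, 14820 of 29076 folds in met-2 were positive. The summed level of the 9 wrt genes was 255 RPM (reads as a share of their library's total, scaled alike for all libraries) in library 3, which enters the met-2 comparison, and between 21.3 and 75.8 RPM in the other libraries. Of the 9, 5 were highest in library 3, as were 6 of 13 epidermis and seam markers. So were 4 of 10 body wall muscle, 4 of 10 intestine and 4 of 9 neuron markers, but 1 of 17 germline and 0 of 13 glia markers. The part of that library in the wrt folds was not tested. Of the 9 wrt folds, 6 were positive in spr-5 and 3 in double mutants. Of the grd genes, 8 of 14 were positive in spr-5 mutants, 8 in met-2 mutants and 4 in double mutants. Of the 27 grl genes, 16 of 26 with a fold were positive in spr-5, 15 of 27 in met-2 and 10 of 26 in double mutants. Taking all hedgehog-related genes, the median log2 change from the authors' deposited tables was 0.12 in spr-5 mutants, 0.16 in met-2 mutants and -0.30 in double mutants. The medians of all transcripts were 0.06, 0.01 and -0.17. At base means of 10 or more the hedgehog-related medians were -0.09, 0.06 and -0.34, and those of all transcripts -0.01, -0.01 and 0.02, from the authors' deposited tables. The hedgehog-related sign in spr-5 changed with this minimum. The 3 comparisons share their N2 libraries.

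Among the receptors' relatives, the patched-related genes had median log2 changes of 0.06 in spr-5 mutants, 0.02 in met-2 mutants and 0.36 in double mutants, from the authors' deposited tables. At base means of 10 or more they were -0.06, -0.01 and 0.21. In double mutants 15 of 23 patched-related folds were positive, and 17 of 49 hedgehog-related ones. Over all transcripts of the authors' deposited table, 11937 of 27634 folds were positive. At base means of 10 or more, positive folds numbered 12 of 19 patched-related and 6 of 18 hedgehog-related genes, and 6128 of 11978 transcripts. The median SE was 1.24 for the hedgehog-related and 1.08 for the patched-related genes in double mutants, larger than either median fold. Such an SE belongs to the fold of a single gene and does not measure the spread of a median over many. Whether the medians differ from 0 or from each other was not tested.

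ptc-1, a Patched relative known for a role in germline cell division, had 232, 268, 368, 455, 74, 146, 130 and 115 reads in libraries 1 to 8. Its reads were present in every library. The authors' deposited tables gave it log2 changes of 0.22 in spr-5 (SE 0.80), 0.10 in met-2 (SE 0.76) and 0.14 in double mutants (SE 0.99). ptc-3, the other Patched relative, had 8 reads in all, in libraries 2, 3 and 4. hog-1, which carries the Hog part of Hedgehog, had 4 reads in library 3 and 2 in library 4 and none elsewhere. A count of 0 allows up to 3 reads, for counting error only, so no level can be compared for either gene. Both ptc-3 and hog-1 had more than 1 transcript listed. Of the 12 members with several listed transcripts, 9 had a mean base mean under 10, against 22 of the 63 with 1 transcript. Over all named genes the shares were 57.0% and 61.6%. How the authors counted reads that several transcripts share is not given in the sources used here, and its part was not tested.

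The 4 patched-related genes with the largest base means had reads in all 8 libraries. ptr-5 had 669, 654, 980, 880, 1262, 1621, 2926 and 819 reads. ptr-21 had 715, 966, 1011, 1224, 624, 939, 1573 and 591 reads. ptr-23, which is known for a part in moulting and osmotic balance, had 1096, 1518, 758, 1120, 418, 902, 663 and 540 reads. None of these 3 was near 0 in any library. ptr-8 was lowest in library 7, with 754, 1439, 505, 879, 109, 236, 88 and 489 reads. In double mutants the authors' deposited table gave log2 changes of 0.64 for ptr-5 (SE 0.98), 0.62 for ptr-21 (SE 0.92), 0.21 for ptr-23 (SE 0.96) and 0.56 for ptr-8 (SE 1.11). None of the 4 passed the adjusted p in any table.

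The 4 hedgehog-related genes with the largest base means were uneven across libraries. grd-10 had 1292, 643, 1329, 1145, 40, 8, 0 and 22 reads in libraries 1 to 8. Its neighbour grd-3 had 215, 131, 238, 260, 36, 0, 17 and 1 reads. grd-13, next to grd-3, had 335, 195, 246, 296, 0, 0, 0 and 0 reads. grd-5, which lies elsewhere, had 364, 331, 332, 641, 21, 101, 1 and 0 reads. All 4 were high in some libraries and near 0 in others. In double mutants the log2 changes were -0.30 for grd-10 (SE 1.26), -0.39 for grd-3 (SE 1.27), -0.20 for grd-13 (SE 1.21) and -0.29 for grd-5 (SE 1.22), in the authors' deposited table. In spr-5 and met-2 the 4 genes lay between -0.40 and 0.02 in the authors' deposited tables, and none passed the adjusted p.

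Over all hedgehog-related genes, the number with reads also differed between libraries. The 51 hedgehog-related genes had reads in 48, 41, 48, 50, 27, 22, 18 and 17 cases in libraries 1 to 8. Their summed level in RPM was 1057, 620, 1068, 1048, 176, 175, 142 and 94.4. The families differed in this sum. The grd genes, which include the 4 above, summed to between 8.68 and 880 RPM per library, and the grl genes to between 62.7 and 227. In library 7 the grl genes summed to 105 RPM, against 118, 103 and 106 in libraries 1, 2 and 3. Of the 105 RPM in library 7, grl-17 alone made up 84.7 RPM. Only 9 of 27 grl genes had reads in library 7, against 25, 22 and 25 in libraries 1, 2 and 3. The similar sum is thus no sign that the grl genes as a family kept their level there. The 24 patched-related genes had reads in 22, 23, 24, 24, 21, 20, 20 and 19 cases, with summed levels between 957 and 2164 RPM. This unevenness was noticed in these values. The hedgehog-related and patched-related genes were not matched for level, the latter having the larger median base mean in each comparison. No count of all transcripts with reads in each library was set beside these. The differences in genes with reads therefore cannot be called particular to the hedgehog-related genes. The numbering follows total reads, so depth moves with it, the deepest library (8) having the fewest hedgehog-related genes with reads. The part of depth in it was not tested. By comparison, the summed hedgehog-related levels were 1057, 1048, 175 and 94.4 RPM in libraries 1, 4, 6 and 8 for spr-5. They were 1057, 1068, 176 and 175 RPM in libraries 1, 3, 5 and 6 for met-2. For the double mutant they were 1057, 620, 175 and 142 RPM in libraries 1, 2, 6 and 7. Each comparison thus held libraries of high and of low hedgehog-related level, and the part of this in the SEs was not tested. Whether it follows the replicate numbers of the labels cannot be told, since no label ties a library to a replicate.

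**Figure D4:**
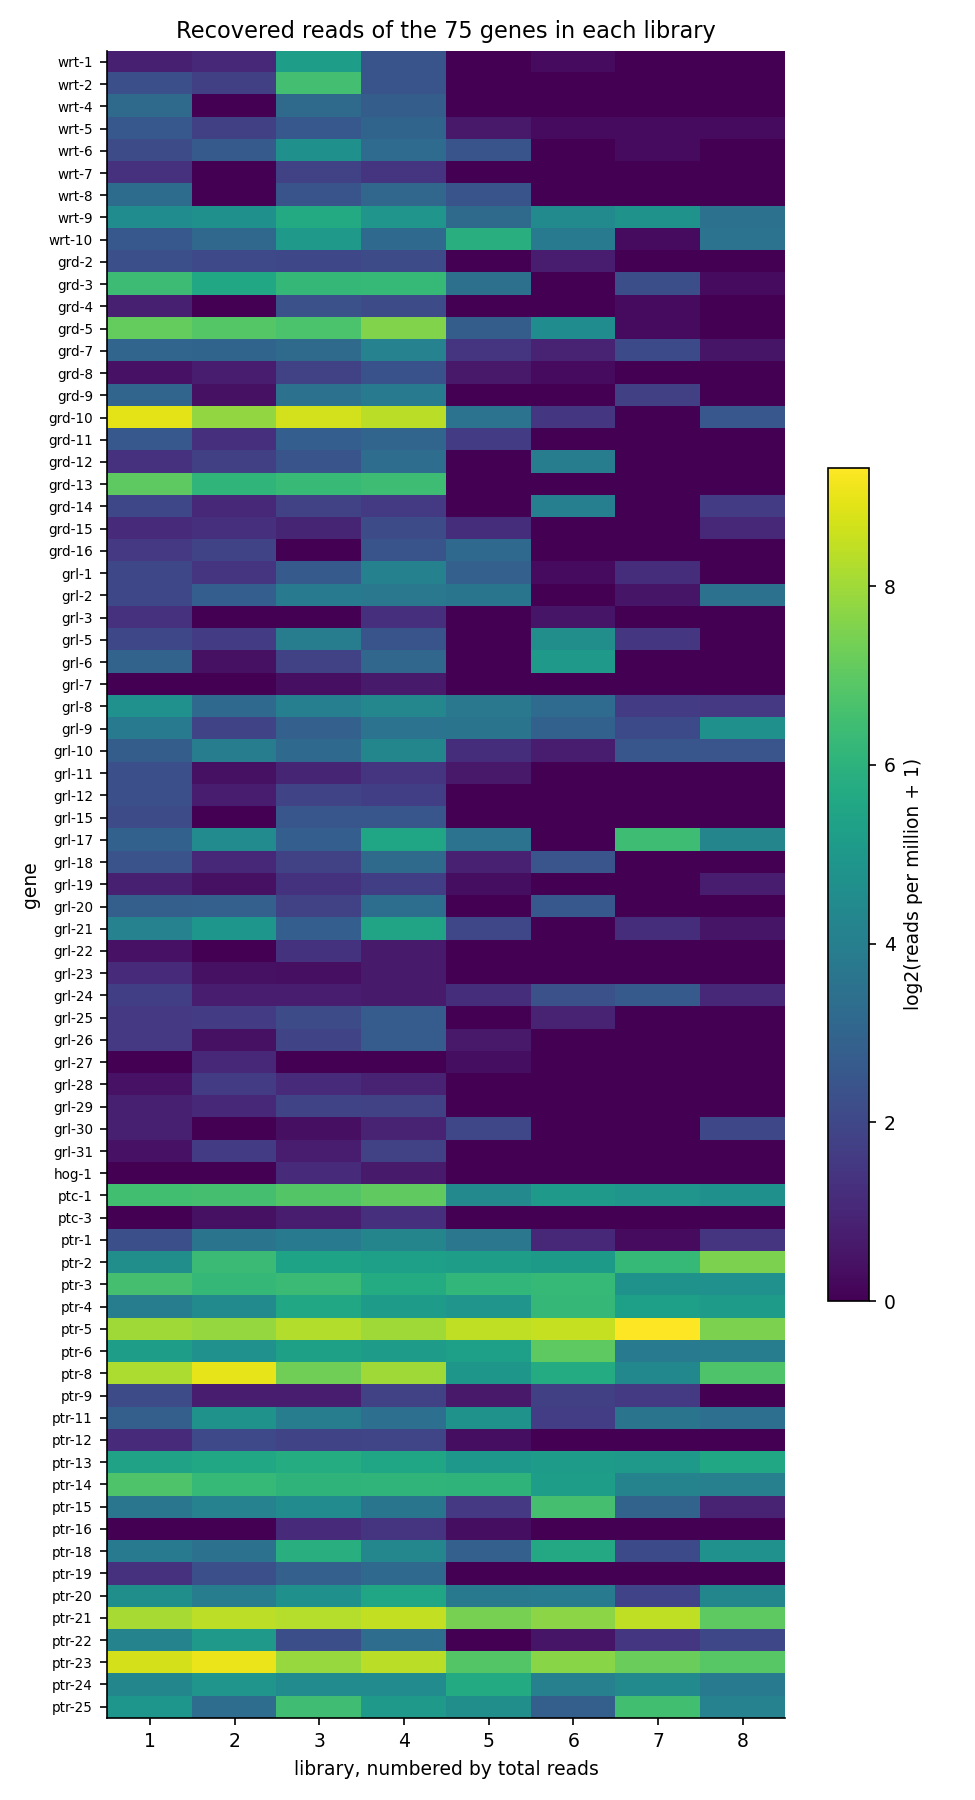
Recovered reads of the 75 genes (rows, by family) in libraries 1 to 8 (columns, numbered by total reads), as log2(RPM + 1). Zeros are most frequent in libraries 7 and 8, with 33 and 34 of the 51 hedgehog-related genes, while most ptr rows are filled across all 8 libraries.

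Within single comparisons the same property was counted as zeros. Among hedgehog-related genes with base means of 10 or more, 15 of 23 had 0 reads in at least 1 of the 4 libraries of the spr-5 comparison, 17 of 26 in the met-2 comparison and 9 of 18 in the double-mutant comparison. For patched-related genes it was 0 of 19, 1 of 19 and 0 of 19. Over all transcripts with such a base mean it was 15.8%, 10.1% and 17.9%. The zeros were not matched for level. Of these genes, 7, 7 and 6 hedgehog-related ones reached a base mean of 50 in the 3 comparisons, in the same order. Of the patched-related genes, 16, 16 and 15 did. A gene can also reach the minimum of 10 through 1 high library. These counts describe the libraries and were not tested.

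Marker genes of other tissues differed between the same libraries. The summed level of 10 body wall muscle markers was 11978, 9884, 11333, 9661, 4827, 4831, 1565 and 4084 RPM in libraries 1 to 8. That of 10 intestine markers was 2814, 1717, 3124, 2606, 1010, 1200, 628 and 858 RPM. Muscle markers with reads numbered 9, 9, 10, 10, 8, 8, 7 and 7 of 10 in libraries 1 to 8, and intestine markers 9 or 10 of 10. Of 13 epidermis and seam markers, 10, 9, 13, 11, 5, 5, 5 and 5 had reads in libraries 1 to 8. Their summed level was 775, 720, 1332, 892, 591, 544, 509 and 929 RPM. Of 13 glia markers, 11, 11, 11, 12, 9, 11, 6 and 9 had reads, summing to between 561 and 1258 RPM. The number of epidermis markers with reads was thus lowest in libraries 5, 6, 7 and 8, which also had the fewest hedgehog-related genes with reads. Neuron markers summed to between 947 and 1826 RPM and germline markers to between 1038 and 4132. sqt-1, elt-1, elt-3, ceh-16 and bus-8 of the epidermis list had no matched transcript with reads. The part of tissue makeup in the members' values was not tested.

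Other genes of the pathway did not pass the test in any mutant. The list held 12 genes, of which 11 had reads and lrp-1 did not. It includes qua-1, a further relative of the Hog part, che-14, which resembles the fly protein Dispatched, and tra-1, the relative of the fly transcription factor Cubitus interruptus. None of the 11 had an unadjusted p under 0.05 in any of the authors' deposited tables. Their median log2 change, computed from the authors' deposited tables, was -0.02 in spr-5 mutants, -0.02 in met-2 mutants and 0.27 in double mutants.

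Of 23 moulting and apical matrix genes with reads, none passed the adjusted p. At an unadjusted p under 0.05, 3 were higher in spr-5, 2 in met-2 and none in double mutants, and none was lower. In the authors' deposited tables sym-1, which codes for an epidermal leucine-rich repeat protein, had log2 changes of 1.78 in spr-5 (SE 0.82, adjusted p 1.00) and 2.06 in met-2 (SE 0.72, adjusted p 0.925). let-653, a matrix protein of narrow tubes, had 2.06 in spr-5 (SE 0.90) and noah-2, a matrix protein of the epidermis, 2.12 in met-2 (SE 0.82), in the authors' deposited tables. The collagen gene sqt-3 of the epidermis list had 1.98 in met-2 (SE 0.75, adjusted p 1.00), and lin-48 of the glia list 2.12 in double mutants (SE 1.06, adjusted p 0.806), in the authors' deposited tables. mtl-1, a metallothionein of the intestine, had -1.39 in met-2 (SE 0.69, adjusted p 1.00), per the authors' deposited table.

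Of 17 germline markers, 1 passed in met-2 and 2 in double mutants. syp-1, a synaptonemal complex gene, rose in met-2 with a log2 change of 4.20 (SE 0.75, adjusted p 6.67e-05) and, in double mutants, with 4.42 (SE 0.99, adjusted p 0.00227), in the authors' deposited tables. prg-1, the Piwi gene, rose in double mutants by 3.78 on the log2 scale (SE 0.94, adjusted p 0.0120), per the authors' deposited table. No gene of the other lists passed in any of the authors' deposited tables.

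The mutated genes themselves do not check the labels, since a mutant allele can still be transcribed. In the authors' deposited tables the log2 change of spr-5 was 0.90 in spr-5 and 1.26 in double mutants, and that of met-2 was -0.43 in met-2 and -0.45 in double mutants, with no call.

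Neighbouring genes were looked at because reads of overlapping genes can be shared and the use of strand is not given in the sources used here. grl-22 lies next to W03A5.1, which rose in spr-5 with a log2 change of 4.38 (adjusted p 0.000211) in the authors' deposited table. grl-22 itself had 1, 0, 5, 2, 0, 0, 0 and 0 reads in libraries 1 to 8 and a fold of 0.07 in spr-5 in the authors' deposited table. Its 8 reads allow no statement on whether it moved with its neighbour.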

How the data were processed

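RNA-seq of 8 libraries was available as 3 tables of the authors' comparisons. Per the submitters' processing notes FastQC, Trimmomatic, featureCounts and DESeq2 2.11.40.2 were used with build ce10. Aligner, annotation and strand use are not given in the sources used here. Base means, a signal value averaging scaled counts, stand in the deposited tables. The deposited log2 fold change divided by its SE equals the deposited Wald score, from which the deposited p-value follows. Folds were read as mutant over N2 from the order in the tables' names; 75 of 78 called rises and 9 of 9 called falls in the double-mutant table had a base mean above, or for falls below, both other tables. The tables were normalized separately, and 0 columns of single samples were left unused.

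Symbols came from the RefSeq table of WBcel235 (46074 of 50832 transcripts, 90.6%), used for names and neighbours. Exon lengths are the merged exons of a gene in the Ensembl annotation of that assembly. ptr-10, ptr-17, ptc-2, grl-4, grl-32 and grd-17 had no matching transcript. Each gene is its transcript with the largest summed base mean. Calls are the authors' adjusted p under 0.05; no test was added. The members and lists were chosen with earlier results of these data known. Named genes are members with an unadjusted p under 0.05, the 2 largest rises and falls per table at base means of 10 or more, the 4 largest base means of each kind, ptc-1, ptc-3 and hog-1, and up to 2 genes per other list.

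Reads were recovered by lattice reduction (sympy 1.14.0 and numpy 2.4.6). This was chosen after the tables were seen. The tolerance was widened after a first pass left transcripts unsolved, and the limit of 10000 on base mean followed trials on simulated tables. Whole reads were found for 50832 of 50832 transcripts, and simulated tables returned 30596 of 30596 exactly. Averages and overlap counts of libraries 1 to 4 against 5 to 8 were also computed, with a summary of the genes highest in library 6. They were withdrawn and are not reported, because these groupings had been read from the members' own values.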

Additional observations from a re-analysis of the deposited data

How the results depend on the processing

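The call of grl-6 in double mutants was lost with Benjamini-Hochberg adjustment over every p-value of the table (adjusted p 0.0870), since this includes transcripts with few reads that the authors had left without an adjusted p. The members called in double mutants then numbered 0, and also 0 at an adjusted p under 0.01. At an unadjusted p under 0.05 they numbered 2 for spr-5, 5 for met-2 and 3 for double mutants. The other counts of called members did not change. All 24 alternative medians moved by less than the median SE of their genes, but some crossed 0. This SE belongs to a single gene and not to a median over many, so the limit was wide and says little on stability. The hedgehog-related median in spr-5 was 0.12 over all its genes, and at base means of 50 or more it was -0.03. The patched-related median in spr-5 was -0.20 at that minimum, and in met-2 -0.01. Choosing the top transcript of a gene table by table changed 0 transcripts, so this setting repeated the main values. Of 113 alternatives for single named genes, the loss of the grl-6 call was the 1 that changed a side of the threshold. As that was the only call to lose, the unchanged alternatives are no measure of robustness. No paired analysis was possible because the tables hold no column of a single library, and no replicate was left out, since no label ties the recovered libraries to samples. Of the 51 hedgehog-related genes, 23 reached a base mean of 10 in the spr-5 table and 18 in the double-mutant table, and the others had too few reads for a statement on their change.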
